A study of Caenorhabditis elegans with 2 samples.

Results

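The intestinal genes described here are 7 genes of the C. elegans gut, chosen by name: the GATA transcription factors elt-2 and elt-7, the peptide transporter gene pept-1, the apical cytoskeleton genes act-5 and erm-1, the saposin-like gene spp-5 and the gut esterase gene ges-1. They are 7 of the 19973 protein-coding genes annotated on the nuclear chromosomes. Each was examined from 5 kb upstream of its annotated start to its end, and every ZTF-22 summit in that window was collected. All the data come from 1 group, whole young adults of both sexes at 68 hours, synchronised by starvation as L1 larvae after bleaching. The strain, OP676, is mutant for unc-119(tm4063) and carries wgIs676, a transgene with ztf-22 fused to TY1, EGFP and 3xFLAG together with unc-119(+). Its chromatin was immunoprecipitated with an anti-GFP antibody in 2 biological replicates. There is no second strain, stage or treatment, so the values below are compared between genes, sites and replicates.

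The worm intestine is a tube of large epithelial cells whose apical face carries a brush border of microvilli. GATA factors bind short GATA-containing sequences. ELT-2 is the main GATA factor of the differentiated gut and acts there on genes for digestion and transport, and ELT-7 acts alongside it. ACT-5 is the actin of the microvilli, and ERM-1 is the ezrin, radixin and moesin homologue that links the apical membrane to actin. PEPT-1 takes up small peptides from the lumen, SPP-5 belongs to the saposin-like family that includes antibacterial peptides, and GES-1 is a carboxylesterase long used as a marker of the gut lineage.

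Each replicate has a deposited list of 30000 candidate regions, as do the pooled reads of both replicates. A further list holds the 952 optimal peaks kept after the replicates were compared by the irreproducible discovery rate. By signal value, the authors' own measure of enrichment, these were the top 952 of the pooled list. Signal values are on different scales in the lists, with medians of 48.4 in the pooled list, 19.2 in replicate 1 and 34.5 in replicate 2. Regions are therefore compared by rank, where rank 1 is the strongest of a list. Positions are on ce11, and distances are given along the gene, negative upstream of its annotated start. The read depth behind each value is unknown. Whole animals were used, so binding in the gut and binding in other tissues cannot be told apart.

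An optimal summit lay in the window of 4 of the 7 genes, elt-2, pept-1, spp-5 and act-5, against 6.94% of all protein-coding genes. In each of these 4 the strongest summit lay within 500 bp upstream of the gene's start, in intergenic sequence. In the promoter window, from 500 bp upstream to 200 bp downstream of a transcript start, the count was again 4 of 7, against 1.91% of all genes. With only summits nearest to a gene's own start it was 4 of 7 as well, against 3.56% of all genes. The windows of elt-7, erm-1 and ges-1 held candidate regions but no optimal peak, and a pooled candidate of any rank lay in the windows of all 7 genes and of 84.6% of all genes. The genes were picked with earlier results of these data known, so their count is a description and was not tested.

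The sequences around the 4 optimal summits near these starts are shown because all hold the GATA-type word TGATAA. Each is WBcel235 reference sequence from 100 bp before to 100 bp after the pooled summit, written 5′ to 3′ on the strand of the gene, with TGATAA on either strand (TTATCA where it lies on the opposite strand) and CTGCGTCTC (GAGACGCAG on the opposite strand) in capitals. They are chrX:10480689-10480889 on the + strand for elt-2, chrX:6456745-6456945 on the + strand for pept-1, chrX:7320392-7320592 on the - strand for spp-5 and chrIII:13606214-13606414 on the - strand for act-5.
elt-2: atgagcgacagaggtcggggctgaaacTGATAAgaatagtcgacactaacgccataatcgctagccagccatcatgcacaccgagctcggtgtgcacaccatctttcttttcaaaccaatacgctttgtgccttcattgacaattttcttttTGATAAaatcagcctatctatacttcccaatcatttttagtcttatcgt
pept-1: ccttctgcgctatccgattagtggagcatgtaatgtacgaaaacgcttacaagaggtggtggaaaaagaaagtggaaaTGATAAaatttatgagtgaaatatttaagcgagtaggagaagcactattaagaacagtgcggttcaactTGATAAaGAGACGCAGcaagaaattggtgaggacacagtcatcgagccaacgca
spp-5: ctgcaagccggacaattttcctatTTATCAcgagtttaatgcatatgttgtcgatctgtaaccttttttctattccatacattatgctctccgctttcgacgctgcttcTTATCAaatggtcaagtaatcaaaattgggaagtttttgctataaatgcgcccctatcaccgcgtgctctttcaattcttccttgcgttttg
act-5: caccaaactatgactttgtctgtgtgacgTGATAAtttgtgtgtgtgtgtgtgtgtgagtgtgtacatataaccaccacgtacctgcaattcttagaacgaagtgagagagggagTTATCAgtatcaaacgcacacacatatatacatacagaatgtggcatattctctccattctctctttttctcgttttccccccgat

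Each of the 4 sequences holds 2 TGATAA words. In elt-2 both are on the strand of the gene and begin 73 bp before and 52 bp after the summit. In pept-1 they are on the same strand as the gene as well, and begin 22 bp before and 47 bp after it. In spp-5 both are on the opposite strand, at 76 bp before and 9 bp after the summit, and act-5 has 1 on each strand, at 71 bp before and 15 bp after. Among all 952 optimal summits, 34.9% had at least 1 TGATAA within 100 bp and 13.4% had at least 2. Among the 340 optimal summits in promoter windows the shares were 33.5% and 15%, and among the 30000 pooled candidates they were 17.5% and 3.60%. The related word AGATAA was in none of the 4 sequences and in 12.8% of the optimal set. CTGCGTCTC, a word taken from earlier results of these data, was in the pept-1 sequence only, where its letters follow the second TGATAA after a single base, and in 9.14% of the optimal summits and 2.18% of the pooled candidates. These matches describe letters and do not show which protein was bound.

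**Figure D1:**
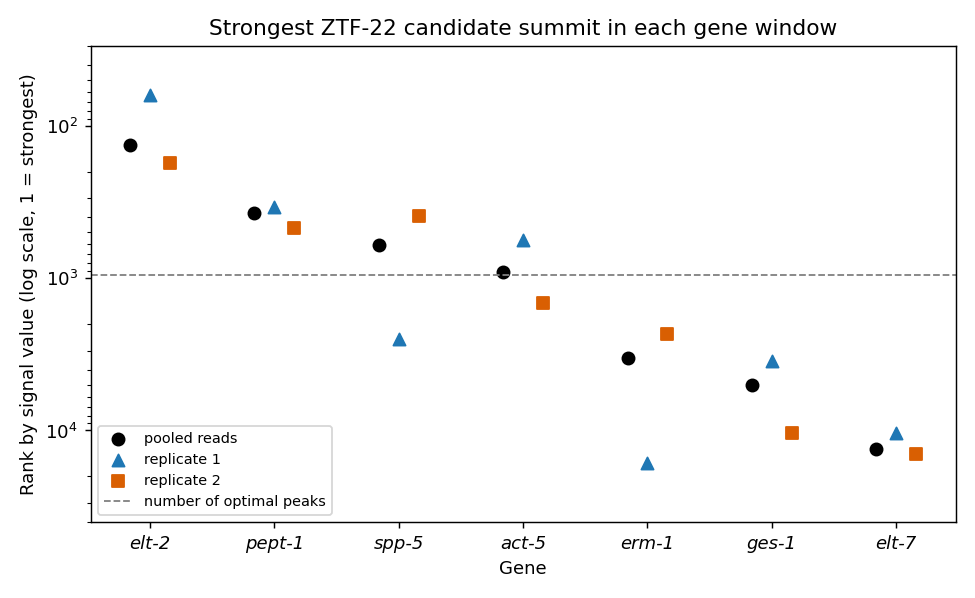
Rank of the strongest ZTF-22 summit in the window of each gene (y axis, log scale, 1 = strongest) in the pooled list, replicate 1 and replicate 2, with a dashed line at rank 952, the number of optimal peaks. The points of elt-2 and pept-1 lie above the line in all 3 lists, those of spp-5 and act-5 lie on both sides of it, and those of erm-1, ges-1 and elt-7 all lie below it.

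Of the 7 genes, elt-2 (WBGene00001250, chromosome X, 10481240 to 10483441, + strand) had the strongest summit in the pooled list and in both replicates. In the pooled list it lay at position 10480789, 451 bp upstream of the start, with a signal value of 197 at rank 133 and a deposited q of 0.00137. It ranked 63 in replicate 1, with its summit 34 bp away, and 176 in replicate 2, with its summit 23 bp away. The site thus stood among the 952 strongest of both replicates. Only 223 protein-coding genes (1.12%) had a stronger pooled summit in their window, 106 in replicate 1 and 273 in replicate 2.

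The elt-2 window also held weaker candidates. The next in the pooled list lay 1777 bp upstream of the start at rank 2428, with a deposited q of 0.149. Replicate 2 placed a summit at 1745 bp upstream, at rank 1667 with a q of 0.0429, but the nearest summit of replicate 1, at 1940 bp upstream and more than 100 bp away, ranked 20786. That pooled site was therefore not matched in replicate 1. A further pooled candidate at rank 2836 lay in a UTR of the neighbouring gene C39B10.7. Inside elt-2 there were 3 pooled candidates, in an intron and in coding exons, at ranks between 8384 and 23426.

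The other GATA factor of the set, elt-7 (WBGene00015981, chromosome V, 4770670 to 4773086, + strand), was the lowest of the 7 in the pooled list. Its strongest pooled summit had a signal value of 50.5 at rank 13244, and it lay in an intron of the upstream gene C18G1.9. Replicate 2 had a summit there at rank 14270, and replicate 1 had none within 100 bp. The strongest candidate in the gene itself lay in a coding exon, 91 bp downstream of the second annotated start, at rank 18325 in the pooled list and 14677 in replicate 2. The only elt-7 summit of replicate 1 ranked 10320 and also lay in C18G1.9. For elt-7, 59.3% of all protein-coding genes had a stronger pooled summit in their window.

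The transporter gene pept-1 (WBGene00003877, chromosome X, 6456872 to 6461767, + strand) stood next to elt-2 in the order. Its summit at position 6456845 lay 27 bp upstream of the start, with a pooled signal value of 151 at rank 372 and a q of 0.00404. It ranked 342 in replicate 1, 6 bp away, and 471 in replicate 2, 54 bp away. As for elt-2, the ranks of both replicates were under 952. The sequence around it runs from the promoter into the start of the annotated transcript, and the second TGATAA begins 20 bp inside the gene. The body of pept-1 also held weaker candidates in introns, the strongest at rank 7571 in the pooled list. Replicate 1 had an intronic summit at rank 2925 and replicate 2 a summit in a UTR at rank 4988, and neither was matched in the other replicate.

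The microvillar actin gene act-5 (WBGene00000067, chromosome III, 13604412 to 13606066, - strand) had the weakest of the optimal summits near a start. The summit lay at position 13606314, 248 bp upstream, with a pooled signal value of 112 at rank 917, and the lowest signal among the 952 optimal peaks was 110. It ranked 567 in replicate 1 and 1463 in replicate 2, with summits 33 and 14 bp away. Replicate 1 therefore placed it among its 952 strongest regions and replicate 2 did not. The deposited q was 0.0132 in replicate 1 and 0.0243 in replicate 2. Replicate 1 had a second candidate 414 bp upstream at rank 1935. A pooled candidate at rank 3000 lay 1964 bp upstream of act-5 and 10 bp downstream of the start of shpk-1, the divergent neighbour. In replicate 2 the candidate there ranked 1726, and replicate 1 had none within 100 bp.

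The other structural gene, erm-1 (WBGene00001333, chromosome I, 5284026 to 5291604, - strand), had no optimal peak. Its strongest pooled candidate had a signal value of 75.6 at rank 3323 and a q of 0.257, and it lay 4155 bp into the gene, in an intron. It ranked 16357 in replicate 1 and 2313 in replicate 2. At its second annotated start, a pooled candidate lay 4 bp upstream at rank 18348, with no summit of either replicate within 100 bp. Upstream of its first start the pooled list held no candidate in the 5 kb examined, and the replicates held 1 weak candidate each, at ranks 25873 and 25007.

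The saposin-like gene spp-5 (WBGene00004990, chromosome X, 7319937 to 7320354, - strand) had 2 optimal summits in its window. The stronger lay at position 7320492, 138 bp upstream of the start, with a pooled signal value of 128 at rank 604 and a q of 0.0058. It ranked 2497 in replicate 1 and 391 in replicate 2, with summits 4 and 56 bp away. The deposited q was 0.177 in replicate 1 and 0.000923 in replicate 2. Replicate 2 thus placed it among its 952 strongest regions and replicate 1 did not, the opposite of act-5. The weaker optimal summit, at position 7323812 and rank 748, lay 3458 bp upstream, inside the tRNA gene WBGene00023134 (7323753 to 7323824) and the ncRNA gene T08A9.15. The nearest protein-coding start to it was that of T08A9.13 and not of spp-5. It ranked 4803 in replicate 1 and 591 in replicate 2, and no TGATAA lay within 100 bp of it. Genes for tRNAs occur in similar copies, and sharing of reads between copies was not examined.

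The esterase gene ges-1 (WBGene00001578, chromosome V, 1427653 to 1432137, - strand) had 6 pooled candidates and no optimal peak. The strongest, with a signal value of 67.4 at rank 5015, lay in a coding exon, and it ranked 3507 in replicate 1 and 15810 in replicate 2. None of the pooled candidates lay in the promoter window, and ges-1 was the only gene of the 7 without one there. Against this count of 6 of 7, 28.3% of all protein-coding genes had a pooled candidate in the promoter window. The upstream region of ges-1 is a textbook example of neighbouring GATA sequences that direct expression in the gut. A pooled candidate with its summit 1209 bp upstream spans a TGATAA word that begins 1124 bp upstream of the start. It ranked 29967 of 30000, with a q of 0.899. Replicate 2 had a summit at 1168 bp upstream, at rank 14504, and replicate 1 had none within 100 bp. The bases within 100 bp of that summit, chrV:1433246-1433446 on the - strand, are shown as a contrast to the optimal sites, with TGATAA in capitals. A neighbouring GATA sequence, TGATAG, lies just before it in lower case. TGATAG was not among the words marked here or at the optimal sites.
ges-1: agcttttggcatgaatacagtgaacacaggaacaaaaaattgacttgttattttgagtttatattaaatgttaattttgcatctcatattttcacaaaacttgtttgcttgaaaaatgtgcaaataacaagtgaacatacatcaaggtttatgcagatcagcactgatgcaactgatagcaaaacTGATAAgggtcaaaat

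**Figure D2:**
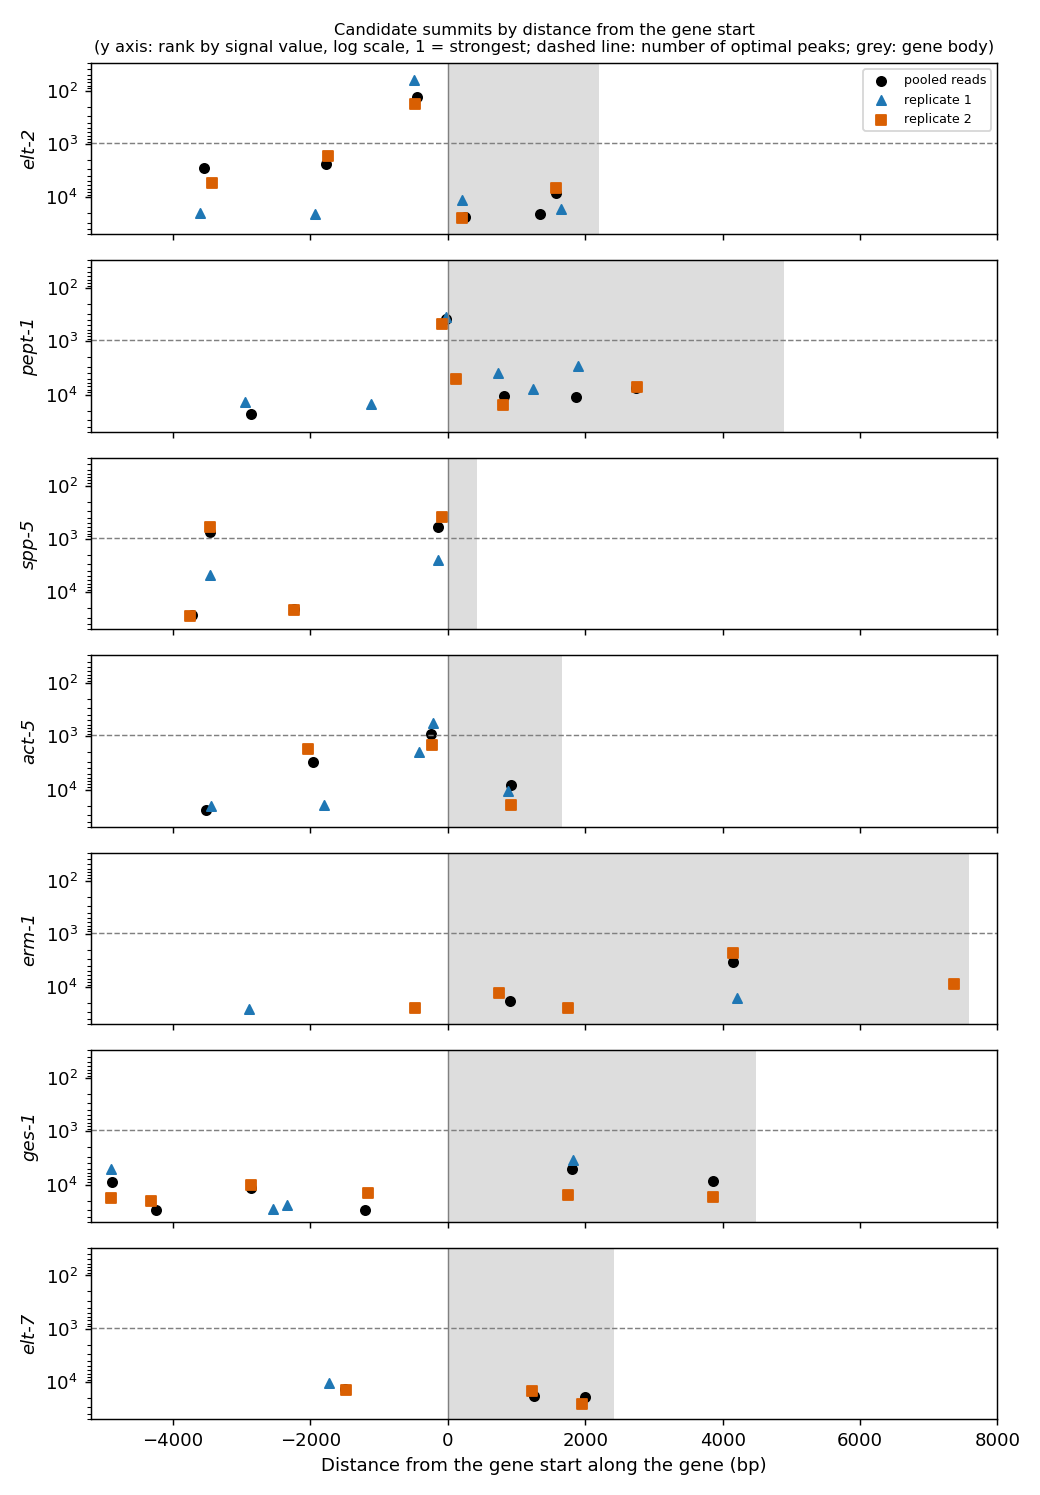
Every candidate summit of the pooled list and of both replicates in the window of each gene, by distance from the gene start in bp (x axis) and rank (y axis, log scale, 1 = strongest), with the gene body in grey and a dashed line at rank 952. For elt-2, pept-1, spp-5 and act-5 the strongest pooled summit lies within 500 bp upstream of the start, whereas for erm-1 and ges-1 it lies inside the gene and for elt-7 in the upstream neighbour.

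Set beside the transporter gene pept-1 and the structural genes act-5 and erm-1 only, elt-2 had the strongest site in every list. In the pooled list its signal value of 197 compared with 151 at pept-1, 112 at act-5 and 75.6 at erm-1. In replicate 1 the ranks were 63 at elt-2, 342 at pept-1, 567 at act-5 and 16357 at erm-1. In replicate 2 they were 176 at elt-2, 471 at pept-1, 1463 at act-5 and 2313 at erm-1. The order of these 4 genes was the same in the pooled list and in both replicates, although the gap between act-5 and erm-1 was far wider in replicate 1. The places of spp-5, ges-1 and elt-7 in the order did change. In replicate 2, spp-5 stood between elt-2 and pept-1, whereas in replicate 1 it stood below act-5. The ranks of spp-5 crossed those of both pept-1 and act-5 between replicates, so the pooled order of these neighbours was not kept in both replicates. The same holds for erm-1 and ges-1. The elt-7 gene was last in the pooled list and in replicate 2, but in replicate 1 it ranked 10320, above erm-1. With 1 value per gene and list, none of these differences was tested.

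Both replicates placed a region among their 952 strongest within 100 bp of the optimal summit at 2 of the 7 genes, elt-2 and pept-1, against 3.46% of all protein-coding genes. With summits required to lie within 50 bp, elt-2 alone remained, against 2.7% of all genes, since the pept-1 summit of replicate 2 was 54 bp from the pooled one. When the strongest 3000 regions of each replicate were used, a depth chosen after the values were seen, all 4 genes with an optimal peak were matched, against 5.35% of all genes. Replicate 1 alone gave elt-2, pept-1 and act-5 a region among its 952 strongest, against 6.95% of all genes. Replicate 2 alone gave elt-2, pept-1 and spp-5, against 7.07%.

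**Figure D3:**
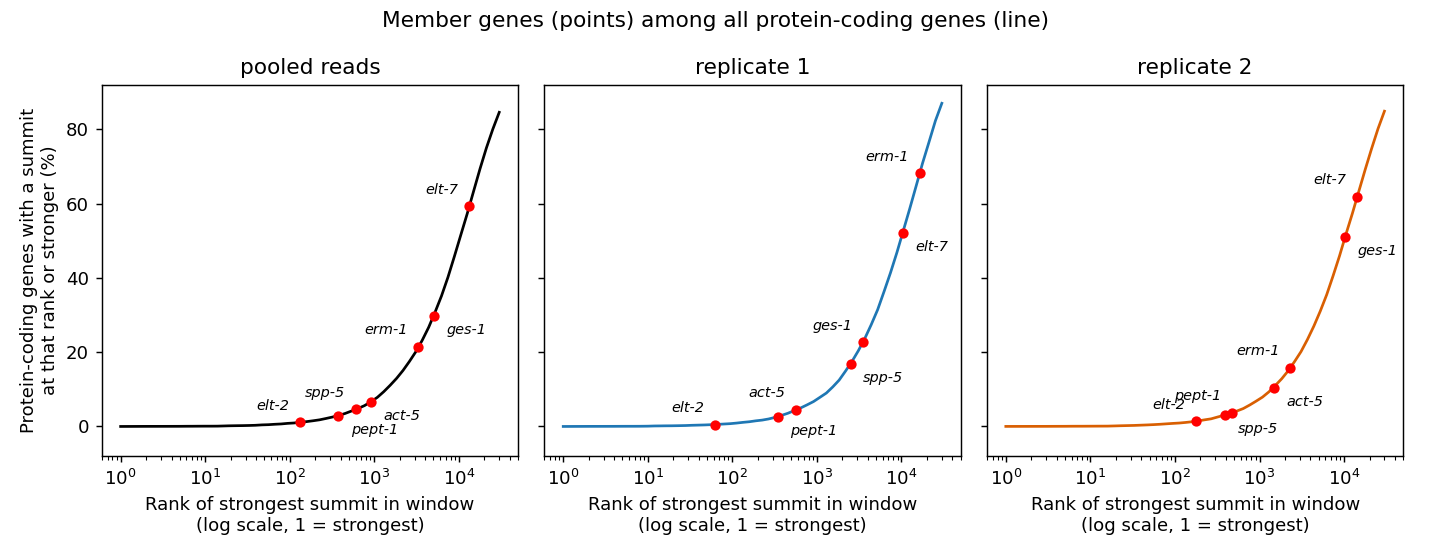
Share of all 19973 protein-coding genes whose window held a summit at a given rank or stronger (line, y axis in percent; x axis, rank on a log scale), in the pooled list and each replicate. Each of the 7 genes is a point at the share of genes with a stronger summit. In the pooled list the points of elt-2, pept-1, spp-5 and act-5 lie at 1.12% to 6.70% of genes, and those of erm-1, ges-1 and elt-7 at 21.4% to 59.3%.

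Across the 7 genes the median rank of the strongest summit in the window was 917 in the pooled list, 2497 in replicate 1 and 1463 in replicate 2. Over all protein-coding genes, with a gene without a candidate placed after the last rank, the medians were 10037 in the pooled list, 9712 in replicate 1 and 9986 in replicate 2. A longer window can hold more summits. The windows of the 7 genes measured 5.42 to 12.6 kb, and the median over all genes was 7.03 kb. The longest was that of erm-1, which had no optimal peak, followed by that of pept-1, which had one, at 9.90 kb. The part of window length in these ranks was not tested.

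The related genes were listed by function or, for the saposin-like genes, by name. Whether each is expressed in the gut was not examined. Of these 74 genes, 9 (12.2%) had an optimal summit in the window, against 6.94% of all protein-coding genes. The count of 9 includes spp-4 and spp-2, whose windows reach the spp-5 summit described above. It also includes spp-28, whose window reaches a peak nearest to the start of xbp-1. In the promoter window the count was 3 (4.05%), against 1.91% of all genes. Of 9 other GATA factors, among them the early gut specification genes end-1 and end-3, none had an optimal summit in the window, and the strongest candidate, at elt-6 and egl-18, ranked 1953. The median rank over those 9 was 12357. Of 10 genes of the apical cytoskeleton, 2 (20%) had an optimal summit, both inside the gene and outside promoter windows. They were eps-8, an actin-capping protein of microvilli (chromosome IV, summit 14883970, intron, rank 377, ranks 1374 and 453 in replicates 1 and 2), and the intermediate filament gene ifp-1 (chromosome X, summit 9676277, coding exon, rank 817, ranks 1852 and 839). The protein-coding start nearest to the ifp-1 summit was that of C43C3.4 and not of ifp-1. The 4 other actin genes had no optimal summit. The strongest pooled candidate of these actins, at rank 1312, lay in the windows of both act-1 and act-3. The strongest replicate 1 candidate of both windows ranked 199. In replicate 2 the strongest ranked 3734 for act-1 and 5723 for act-3. These are the best ranks of each window and need not belong to the same site. Actin genes are near-identical in parts, and whether their reads were shared between copies was not examined.

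Of 9 genes of cell junctions and polarity, only pkc-3, an atypical protein kinase C of the apical domain, had an optimal summit, 238 bp upstream of its start (chromosome II, summit 5379789, rank 622). The summit lay in an exon of the ncRNA gene F09E5.22 and ranked 550 in replicate 1 and 675 in replicate 2. Of 12 transport genes, listed here under apical transport, 2 (16.7%) had an optimal summit in the window. In the promoter window it was 1 of the 12 (8.33%). These shares compare with 6.94% and 1.91% of all genes. Whether the product of each of the 12 genes acts at the apical face was not examined, so the shares describe the list only. The site at pgp-1, a P-glycoprotein gene, lay 1969 bp upstream in a UTR of Y55D9A.2 (chromosome IV, summit 12601138, rank 174, ranks 768 and 140 in replicates 1 and 2). The site at the haem transporter gene hrg-1 (rank 736) ranked 26163 in replicate 1 and 588 in replicate 2. The other peptide transporter genes had none: the strongest pept-3 candidate ranked 1849, and pept-2 had no pooled candidate.

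Of 30 other saposin-like genes, 4 (13.3%) had an optimal summit in the window, against 6.94% of all genes, and 1 (3.33%) had it in the promoter window, against 1.91%. The gene with a promoter summit was spp-14 (chromosome X, summit 7725837, 142 bp upstream, in an exon of the ncRNA gene K09F5.9, rank 448). Its ranks of 3736 in replicate 1 and 278 in replicate 2 differed in the same direction as those of spp-5. The windows of spp-4 and spp-2 reached the spp-5 summit described above, which lay 1736 and 3674 bp upstream of their starts. The spp-28 window reached a peak at rank 44 whose nearest start was that of xbp-1.

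**Figure D4:**
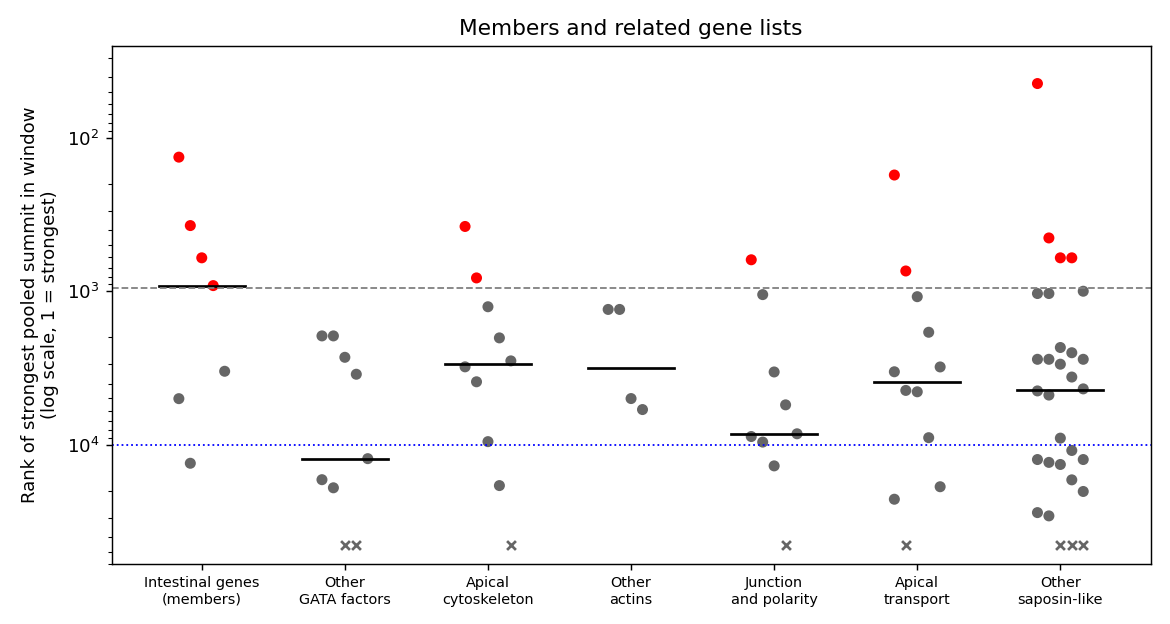
Rank of the strongest pooled summit in the window (y axis, log scale, 1 = strongest) for each of the 7 intestinal genes and each gene of the related lists. Red points have an optimal summit in the window, grey points have none, crosses have no pooled candidate, bars are medians, and the lines mark rank 952 (dashed) and the median over all genes, 10037 (dotted). The bar of the 7 intestinal genes lies at 917, and those of the other lists lie between 2976 and 12357.

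The genes outside these lists whose promoter peak was most like that of elt-2 were dnj-13, gst-27 and eef-1A.2. Likeness was the sum of the absolute differences of log10 rank in the pooled list and both replicates, and it was 0.18, 0.21 and 0.26. The dnj-13 site (chromosome II, summit 11545478) ranked 116 in the pooled list, 81 in replicate 1 and 181 in replicate 2. The gst-27 site (chromosome II, summit 15166047) ranked 136, 68 and 256 in the same order. The eef-1A.2 site (chromosome X, summit 7823254) ranked 112, 78 and 219.

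The transgene adds copies of ztf-22 and unc-119, whose loci can gather reads from it. None of the 7 genes lies on the chromosome of ztf-22, and act-5, the only one on that of unc-119, lies 2.70 Mb away.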

How the data were processed

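ZTF-22 binding was measured by ChIP-seq in 2 biological replicates of 1 strain. Per the deposited descriptions, each replicate's candidate regions came from its alignment and a control alignment, the pooled list from both alignments, and the optimal peaks from these lists by the irreproducible discovery rate, all on ce11. The sources used here do not name the aligner, the peak caller, its settings or the peak threshold. Column 7 is the deposited signal value of a region, used only to rank regions within a list. Column 9 was read as the deposited -log10 q value and is given as q. The q of the elt-2 site was the lowest of the pooled list, 0.00137, and of replicate 2, 0.000923. In replicate 2 the pept-1 and spp-5 sites shared that lowest value, so q did not grade these sites there. In 98.1% of the optimal peaks the summit is the middle of the region. The precision of summit positions was not tested.

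Regions fitted the chromosome lengths of WBcel235, and genes came from Ensembl release 115 of that build. Python 3.11.15 and pandas 2.3.3 were used. A summit belonged to a gene's window by position alone, so 1 summit can count for several genes. Sites matched when summits lay within 100 bp. Counting of summits was tested on simulated data. No significance test was run, since there is 1 group and genes are not replicates. The 2 replicates are separate biological samples per the labels.

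The 7 genes and the related lists were chosen with earlier results of these data known. The text names all 7 genes, up to 4 genes per related list with the strongest optimal summits, the genes whose starts were nearest to those summits, and the 3 genes most like elt-2. Other candidates of the related lists, the neighbours C39B10.7, C18G1.9 and shpk-1, and the ncRNA genes F09E5.22 and K09F5.9 were named after their values were seen. Alternatives changed the window, the promoter window, the matching distance, the number of peaks and the replicate used.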

Additional observations from a re-analysis of the deposited data

How the results depend on the processing

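The count of 4 genes with an optimal summit stayed at 4 with 2 kb upstream (4.5% of all genes) or 10 kb upstream (10.8%). It was also 4 with summits nearest to the gene's own start only (3.56%) and without summits inside a tRNA gene (6.7%). The tRNA setting was added after seeing the data. The count was 3 without replicate 1 (act-5 lost), against 7.07% of all genes for the window and 1.99% for the promoter window. It was 3 without replicate 2 (spp-5 lost), against 6.95% and 1.67%, for the window and for the promoter window alike. With the 476 strongest optimal peaks it was 2, elt-2 and pept-1, for both windows (3.68% of all genes for the window and 0.951% for the promoter window), and with any pooled candidate region it was 7, as it was for 84.6% of all genes. Fewer or more regions are counted there by construction. The count of 2 genes matched in both replicates was 1 with summits within 50 bp and 4 with the strongest 3000 regions of each replicate list, also added after seeing the data, and stayed at 2 under the other alternatives run. No other member ranked above elt-2 under any alternative run. Taking the ranks of a single replicate in place of the pooled list gave 63 to 176 for elt-2, 342 to 471 for pept-1, 391 to 2497 for spp-5, 567 to 1463 for act-5, 2313 to 16357 for erm-1, 3507 to 10320 for ges-1 and 10320 to 14270 for elt-7. The cause was not tested. Optimal summits in the windows with TGATAA or AGATAA numbered 4 of 5 within 100 bp, 3 within 50 bp, where elt-2 was not among them, and 5 within 200 bp. Of all 952 optimal summits, 41.3%, 25.7% and 59.0% held either word within 100, 50 and 200 bp. No paired analysis was possible because there is only 1 group. Without read depths, absence from a list says only that no region there was among its 30000 strongest.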

Other observations

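Candidate regions of any rank were dense in most of the 7 windows. In the pooled list the windows held 0.159 to 0.833 summits per kb, with a median of 0.601, and the median over all protein-coding genes was 0.293. The median over the 7 genes was 0.422 per kb in replicate 1 and 0.451 in replicate 2, and over all genes it was 0.295 and 0.290. The highest pooled density was that of elt-2 and the lowest that of erm-1.

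The bases within 100 bp of the weaker pooled candidate of elt-2, 1777 bp upstream of its start, also held 1 TGATAA, beginning 77 bp before the summit. The strongest pooled candidate of elt-7 held neither TGATAA nor AGATAA within 100 bp, and that of ges-1 held 1 TGATAA, on the opposite strand. The GC content of the sequences at the 4 optimal summits near starts was 39.8% at spp-5, 41.3% at pept-1 and act-5, and 42.3% at elt-2. The median over all optimal summits was 43.8%, and over all pooled candidates 41.3%.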
